A study of Mus musculus with 6 samples.

Results

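Major histocompatibility complex (MHC) antigen presentation genes were followed in whole mouse pituitary glands on Affymetrix 3' expression arrays. The 8 genes are H2-K1, H2-D1, B2m and Tap1 of the class I pathway and H2-Aa, H2-Ab1, H2-Eb1 and Cd74 of the class II pathway. Their members are the probe sets that the platform annotation pairs with exactly 1 of these genes, 26 of the 22626 probe sets that are not array controls. A further 3 probe sets name H2-K1 or H2-D1 together with another gene and were left out. The samples are 3 arrays labelled Bmal1-/- (replicates 4 to 6) and 3 wild-type arrays (replicates 1 to 3), from males of the C57BL/6J strain between 8 and 12 weeks old. They lived under alternating light and darkness of 12 hours each and were killed at lights off (zeitgeber time 12). Each array carried RNA pooled from 3 glands of 1 genotype, and the labels do not say how the Bmal1 allele was made or which cells of the gland contribute. BMAL1, the product of Arntl, is the transcription factor at the centre of the circadian clock, and the comparison asks which transcripts differ at this time of day when it is missing.

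MHC class I molecules sit on nearly all nucleated cells. Each is a heavy chain, such as those encoded by H2-K1 and H2-D1, bound to beta-2-microglobulin, the product of B2m, and loaded with a peptide that the transporter subunits TAP1 and TAP2 carry into the endoplasmic reticulum. MHC class II molecules are made mainly by professional antigen-presenting cells, pair an alpha chain (H2-Aa) with a beta chain (H2-Ab1), and are escorted through the cell by the invariant chain CD74. The anterior pituitary holds resident macrophages and dendritic cells among its hormone-producing cells, so a whole-gland array reads class II transcripts from a minority of cells. C57BL/6 mice carry the b haplotype, in which H2-Ea is disrupted and the product of H2-Eb1 lacks its usual alpha chain partner.

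Values are MAS5 intensities on a linear scale. Fold changes and tests are on log2(intensity + 16), with a positive value meaning higher on the arrays labelled Bmal1-/-. There are n = 3 arrays of each genotype in every comparison, and this small number limits the precision. Of the 26 member probe sets 17 passed the filter on low values, which kept the brightest 60% of probe sets by their mean over all 6 arrays. The targeted gene Arntl read 112.1, 102 and 127.5 on the arrays labelled Bmal1-/-, against 39.6, 51.7 and 38.6 in wild type. It was higher where a null allele would lower it, and where its probe set lies relative to the deleted part is not stated in the labels or files, so it does not check the labels and every direction below is that of the arrays labelled Bmal1-/-. The hormone transcripts that define the gland were abundant, with Gh at 15479.6 to 16756.3 on the arrays labelled Bmal1-/- and 18200.8 to 20434.1 in wild type.

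B2m was the only 1 of the 8 genes to pass the test, and it fell. Both of its probe sets fell, to about 0.7 of the wild-type signal, while the class I heavy chain genes H2-K1 and H2-D1, whose products it binds, did not pass and had positive log2 fold changes at their brightest probe sets. None of the class II genes passed. In all, 2 of the 17 tested member probe sets passed at a limma adjusted p under 0.05, both lower on the arrays labelled Bmal1-/-. Over all 13576 tested probe sets 5.54% passed in either direction, 2.78% downward and 2.75% upward, so 2 of 17, from 1 gene, is a small count to set beside that background. At an unadjusted p under 0.05 there were 3 of the 17, against 21% of all tested. The median log2 fold change of the 17 was -0.04, with 11 below 0 and 6 above.

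The brightest B2m probe set (1452428_a_at) read 1984.2, 2112.9 and 1853.9 on the arrays labelled Bmal1-/-, against 2824.8, 2533.8 and 3047.7 in wild type. The genotypes did not overlap, which was also true of 25.9% of all tested probe sets. Its mean was 1984 ± 130 on the arrays labelled Bmal1-/- and 2802 ± 258 in wild type (SD), a log2 fold change of -0.49 (SE 0.08, 95% interval -0.66 to -0.32, limma adjusted p = 0.00414). The other B2m probe set (1449289_a_at) read 1935.9, 2074.6 and 1669 on the arrays labelled Bmal1-/-, against 2743.4, 2543.7 and 2866 in wild type. The same arrays were high and low within each genotype in both probe sets: wild-type replicate 3 was the highest and replicate 2 the lowest, and replicate 5 was the highest and replicate 6 the lowest of those labelled Bmal1-/-. Its log2 fold change in the second probe set was -0.52 (SE 0.08, adjusted p = 0.0041). The call of the brighter one was lost only when limma's variance model had no intensity trend (adjusted p = 0.0517), where the other stayed just past it (adjusted p = 0.0489). The fall was -0.48 after quantile normalization and -0.49 with equal array medians.

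**Figure D1:**
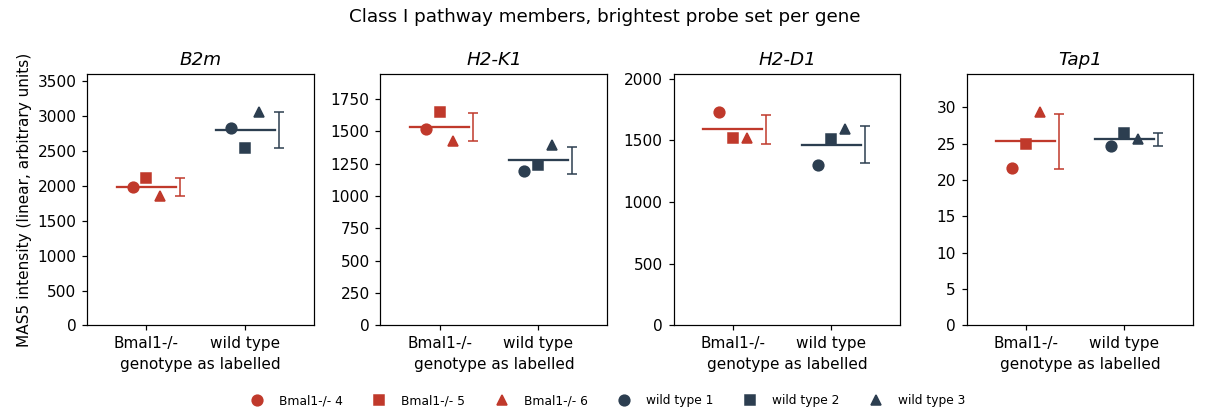
MAS5 intensity (linear, arbitrary units) of the brightest probe set of B2m, H2-K1, H2-D1 and Tap1 on each array, with the 3 arrays labelled Bmal1-/- left of the 3 wild-type arrays. Symbols are arrays, horizontal lines are means and bars are 1 SD. B2m sits between 1853.9 and 2112.9 on the arrays labelled Bmal1-/- and between 2533.8 and 3047.7 in wild type, H2-K1 lies slightly higher on the arrays labelled Bmal1-/-, and the other pairs overlap.

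H2-K1 encodes the K heavy chain of class I. Its brightest probe set (1425336_x_at) read 1519.9, 1644.2 and 1426.5 on the arrays labelled Bmal1-/-, against 1190.8, 1239.1 and 1390.8 in wild type. The genotypes did not overlap, though wild-type replicate 3 and replicate 6 of those labelled Bmal1-/- lay close together. The log2 fold change was 0.26 (SE 0.08, 95% interval 0.09 to 0.44) and the adjusted p of 0.0758 missed the threshold, with an unadjusted p of 0.0062. It also missed it in all 16 alternatives, with log2 fold changes of 0.21 to 0.33. The second H2-K1 probe set (1451931_x_at) averaged 927 ± 122 on the arrays labelled Bmal1-/- and 836 ± 33.3 in wild type (0.14, SE 0.09). The third (1427746_x_at) spread widely, at 454.8, 604.1 and 226 on the arrays labelled Bmal1-/- and 234.4, 385 and 327.5 in wild type (0.34, SE 0.27), so its genotypes overlapped fully. The fourth, 1450534_x_at, read at most 19.3 and was not tested.

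H2-D1 encodes the D heavy chain and has the most probe sets, 9, of which 4 were tested. The first of its 2 bright ones (1451784_x_at) read 1725.4, 1522.7 and 1519.2 on the arrays labelled Bmal1-/-, against 1299, 1509.7 and 1588.3 in wild type, and its genotypes overlapped (log2 fold change 0.12, 95% interval -0.07 to 0.30, adjusted p = 0.47). The second (1425545_x_at) averaged 1450 ± 107 on the arrays labelled Bmal1-/- and 1367 ± 118 in wild type (0.09, SE 0.08). The 2 dimmer ones had negative log2 fold changes of -0.05 and -0.18, and their genotypes overlapped. Intensities were 150.8 to 181.6 on the arrays labelled Bmal1-/- and 147.8 to 187.7 in wild type for 1451683_x_at. For 1426324_at they were 34.5 to 43.5 on the arrays labelled Bmal1-/- and 38.2 to 54.9 in wild type. The 5 untested H2-D1 probe sets never exceeded 21.8. All 4 H2-K1 probe sets and 7 of the 9 of H2-D1 end in _x_at, a suffix Affymetrix gives to probe sets with probes that can match other transcripts, and the heavy chain genes are near-copies of each other, so how these probe sets divide the signal between K, D and related genes is uncertain. The probe set that the annotation pairs with both genes (1424948_x_at) read 110.6, 145.9 and 148.1 on the arrays labelled Bmal1-/-, against 111.7, 110.3 and 110.1 in wild type (0.24, SE 0.12, adjusted p = 0.284). The other left-out probe sets read at most 18.3.

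The ratio of light chain to heavy chain signal was compared within arrays. Within each array, the log2 ratio of the brightest B2m probe set to the brightest H2-K1 probe set was 0.38, 0.36 and 0.37 on the arrays labelled Bmal1-/-, against 1.24, 1.02 and 1.12 in wild type. Against H2-D1 the ratio was 0.20, 0.47 and 0.28 on the arrays labelled Bmal1-/-, and 1.11, 0.74 and 0.93 in wild type. Neither ratio overlapped between genotypes. The differences of -0.76 and -0.61 each had an exact permutation p of 0.1 (two-sided), which is the lowest value possible with 3 arrays on each side. Probe sets differ in efficiency, so the ratios themselves say nothing of relative abundance, and they were computed after the values of the genes were seen.

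Tap1, a subunit of the peptide transporter, was dim. Its single tested probe set (1416016_at) read 21.7, 25 and 29.3 on the arrays labelled Bmal1-/-, against 24.7, 26.5 and 25.6 in wild type, with a log2 fold change of -0.01 and a 95% interval of -0.34 to 0.31. The other 3 Tap1 probe sets never exceeded 8.3. Its SE was 0.15, and 0.24 with a pseudocount of 1 in place of 16.

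Class I and class II promoters share a conserved set of elements, among them X2 and Y, through which the coactivators NLRC5 and CIITA act. RefSeq promoters (GRCm38.p6, 250 bases before to 50 after the annotated start) were read for 6 of the 8 genes, matched by symbol. H2-Ab1 had no entry and Cd74 was left out of this search, so the motif counts cover neither of these class II genes. The windows of Tap1 and H2-Eb1 lacked the exact X2 and Y core letters in the usual order and spacing and are not printed. The 4 below are shown because they held them. They are written 5′ to 3′ on the gene's strand. Capitals mark the interferon repeat (GAAA, any 2 bases, GAAA), the interferon motif GAAGTGAAA, the palindromic NF-kappa B motif, the X2 core TGACG and the Y core ATTGG, each on either strand. B2m is at chr2:122147437-122147736 on the plus strand, H2-K1 at chr17:34000298-34000597 on the minus strand, H2-D1 at chr17:35262844-35263143 on the plus strand and H2-Aa at chr17:34287774-34288073 on the minus strand.
B2m: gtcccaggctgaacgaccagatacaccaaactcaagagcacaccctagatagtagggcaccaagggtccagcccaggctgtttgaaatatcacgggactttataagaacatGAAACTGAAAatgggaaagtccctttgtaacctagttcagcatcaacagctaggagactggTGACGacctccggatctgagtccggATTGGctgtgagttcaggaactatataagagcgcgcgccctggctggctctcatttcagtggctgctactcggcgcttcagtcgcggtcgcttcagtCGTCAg
H2-K1: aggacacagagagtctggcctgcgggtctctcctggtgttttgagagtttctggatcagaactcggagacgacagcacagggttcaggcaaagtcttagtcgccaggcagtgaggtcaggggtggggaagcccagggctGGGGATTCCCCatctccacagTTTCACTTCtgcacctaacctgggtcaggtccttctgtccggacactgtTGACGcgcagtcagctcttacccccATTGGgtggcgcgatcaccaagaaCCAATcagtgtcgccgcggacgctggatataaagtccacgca
H2-D1: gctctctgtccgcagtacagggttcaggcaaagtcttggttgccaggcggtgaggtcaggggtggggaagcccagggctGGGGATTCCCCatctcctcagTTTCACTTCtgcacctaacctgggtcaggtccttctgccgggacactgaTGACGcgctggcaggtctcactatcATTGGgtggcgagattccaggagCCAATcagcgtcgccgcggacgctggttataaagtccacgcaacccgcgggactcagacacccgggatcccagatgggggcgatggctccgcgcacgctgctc
H2-Aa: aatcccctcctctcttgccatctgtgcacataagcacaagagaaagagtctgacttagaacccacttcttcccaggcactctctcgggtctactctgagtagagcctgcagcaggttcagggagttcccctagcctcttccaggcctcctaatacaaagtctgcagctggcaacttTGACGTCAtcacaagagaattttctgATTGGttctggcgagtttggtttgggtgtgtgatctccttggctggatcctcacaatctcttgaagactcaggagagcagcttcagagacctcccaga

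Of the 6 windows 4 held TGACG followed by ATTGG, with starts 25 bases apart in B2m, H2-K1 and H2-D1 and 26 apart in H2-Aa. That arrangement, with starts 20 to 30 bases apart on the gene's strand, was found in 0.25% of 32851 mouse promoters. These exact letters were not found so arranged in the windows of Tap1 and H2-Eb1. Variant forms of X2 and Y were not searched, so a variant arrangement there is not excluded. The exact palindromic NF-kappa B motif was in H2-K1 and H2-D1 and not in the B2m window, against 0.0304% of all promoters. Other forms of the NF-kappa B motif were not searched, so such a form in the B2m window is not excluded. B2m held the interferon repeat, found in 3.44% of promoters, and the heavy chain genes held GAAGTGAAA, found in 0.505%. The H2-K1 and H2-D1 windows were identical at 176 of 240 aligned bases without gaps (73.3%). A match shared by both is therefore not 2 separate observations, and the shares of all promoters are given as background and not as a test. Of motifs tied to the clock, the E-box CACGTG and the D-box TTANGTAA were in none of the 6 windows, against 7.15% and 2.32% of all promoters, and the REV-ERB and ROR half-site AGGTCA was in H2-K1, H2-D1 and H2-Eb1, against 16.3%. These are matches of letters, not sites of binding.

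The class II genes were measured by 7 probe sets, all tested, and none passed. Cd74, the invariant chain, read 561.2, 422.2 and 371.7 on the arrays labelled Bmal1-/-, against 449, 410.9 and 519.3 in wild type. The highest and the lowest value were both on arrays labelled Bmal1-/-, so the genotypes overlapped fully. The log2 fold change was -0.04 (SE 0.13, 95% interval -0.33 to 0.25, adjusted p = 0.907). H2-Aa, the I-A alpha chain, was as close to 0. Its brightest probe set (1435290_x_at) read 398.2, 368.9 and 326.6 on the arrays labelled Bmal1-/-, against 387.3, 347.8 and 376.6 in wild type (-0.03, 95% interval -0.23 to 0.18). The dimmer one (1452431_s_at) averaged 81.5 ± 28.8 on the arrays labelled Bmal1-/- and 97.4 ± 18.4 in wild type (-0.25, 95% interval -0.68 to 0.18).

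H2-Ab1, the I-A beta chain, had 3 probe sets that differed in direction. The brightest (1450648_s_at) read 103.6, 107.6 and 91.2 on the arrays labelled Bmal1-/-, against 99.4, 117 and 111.5 in wild type (-0.10, 95% interval -0.35 to 0.15). The other log2 fold changes were 0.16 (SE 0.16) for 1451721_a_at and -0.21 (SE 0.17) for 1425477_x_at, and the genotypes overlapped in all of them. H2-Eb1, the I-E beta chain, had the most negative log2 fold change of the class II genes at their brightest probe sets, with a wide spread. It read 203.4, 127.4 and 139.9 on the arrays labelled Bmal1-/-, against 158.4, 160.3 and 252 in wild type (-0.25, SE 0.18, adjusted p = 0.479). Leaving out 1 array moved the log2 fold change either way, to -0.05 without wild-type replicate 3 and to -0.43 without replicate 4 of those labelled Bmal1-/-, each the highest of its genotype. The 3 probe sets of H2-Ea, its disrupted partner in this strain, read at most 5.9 on the arrays labelled Bmal1-/- and 7.3 in wild type, none of which passed the filter on low values.

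**Figure D2:**
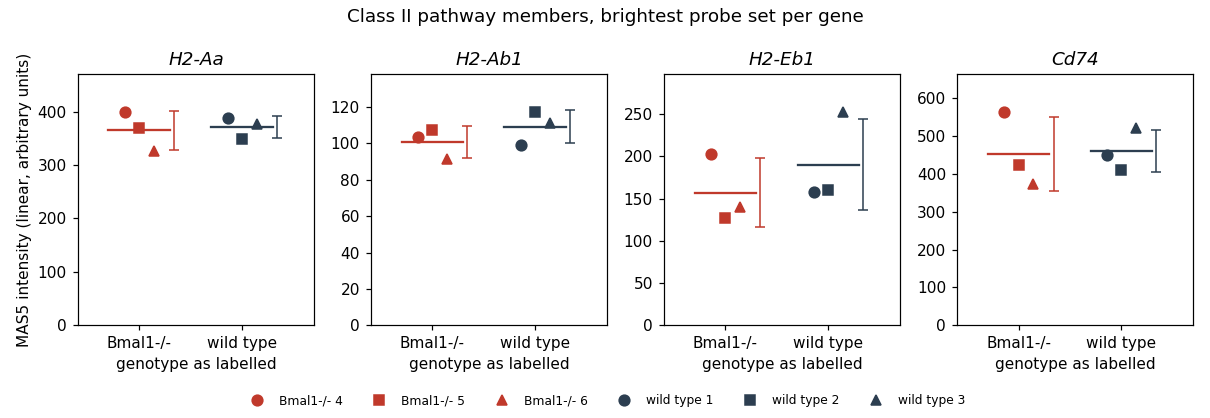
MAS5 intensity (linear, arbitrary units) of the brightest probe set of H2-Aa, H2-Ab1, H2-Eb1 and Cd74 on each array, with the arrays labelled Bmal1-/- left of wild type. Symbols are arrays, horizontal lines are means and bars are 1 SD. The genotypes overlap for all 4 genes, and replicate 4 (labelled Bmal1-/-) and wild-type replicate 3 are the highest of their genotype for Cd74 and H2-Eb1.

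For class II, arrays of 1 genotype differed among themselves. Replicate 4 was the highest array labelled Bmal1-/- for 6 of the 7 class II probe sets, and wild-type replicate 3 the highest wild-type array for 4 of 7. The mean log2 level of the 4 class II genes was 8.14, 7.87 and 7.76 on the arrays labelled Bmal1-/-, against 7.95, 7.94 and 8.19 in wild type. Over the 6 arrays Cd74 and H2-Aa tracked each other most closely of the 6 gene pairs computed, with Pearson's r = 0.86 (exact permutation p = 0.0319, adjusted 0.154) and Spearman's rho = 0.94 (exact permutation p = 0.0167, adjusted 0.1), and r was 0.68 without the 2 arrays farthest from the median of H2-Aa. For H2-Eb1 and Cd74 r was 0.81 (exact permutation p = 0.0514, adjusted 0.154) and rho was 0.66, and without the 2 arrays farthest on H2-Eb1 r was 0.31. The 4 pairs that include H2-Ab1 or join H2-Aa to H2-Eb1 had r of 0.25 to 0.49. No pair passed after adjustment.

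**Figure D3:**
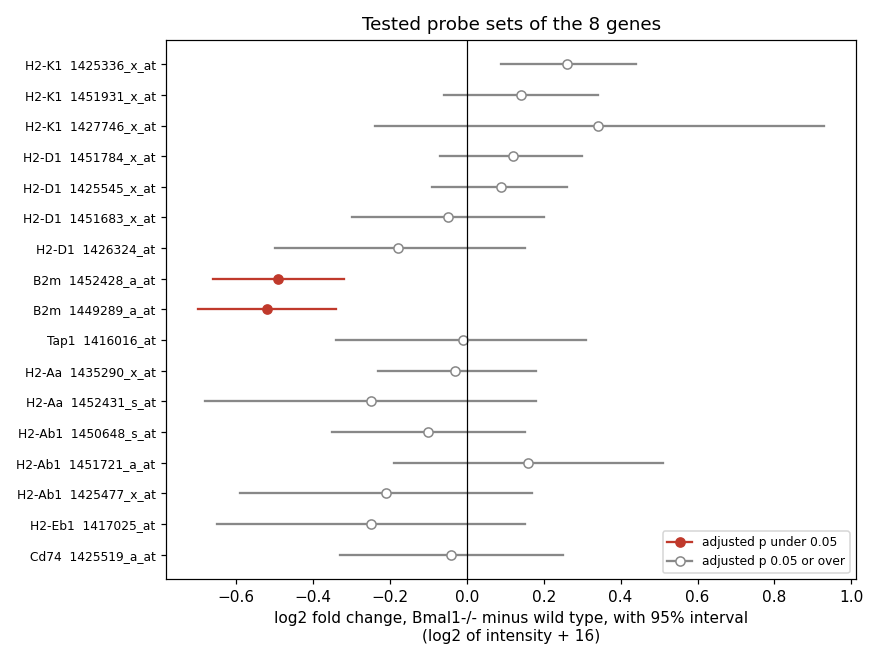
Log2 fold change (Bmal1-/- minus wild type, on log2 of intensity + 16) of the 17 tested member probe sets, with 95% intervals from limma. Filled red points passed at an adjusted p under 0.05 and open grey points did not. The 2 B2m probe sets, at -0.49 and -0.52, are the only ones to pass, and the interval of the brightest H2-K1 probe set, 0.09 to 0.44, lies above 0.

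Profiles over the 6 arrays were also compared with those of the 8025 other tested genes, using the mean log2 level of the 4 genes of each class. The class I mean joins log2 fold changes of opposite sign, -0.49 for B2m and 0.26 for H2-K1. H2-D1 was at 0.12 and Tap1 at -0.01, so likeness to the class I mean need not be likeness to any of its genes. For class II the highest Pearson's r were those of Sbds (0.993), Zfand3 (0.988), Rps2 (0.985), Eps8l1 (0.984) and Mapkapk5 (0.982), and 55 genes exceeded 0.9. For class I they were Tmem38a (0.983), Bloc1s5 (0.983), Tmem186 (0.981), Cog8 (0.969) and Naa40 (0.969), with 41 genes over 0.9. None of these 10 genes differed between the genotypes past the threshold. They share arrays with the members, and with so many genes and so few arrays high values are a description only.

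No other gene of the class I pathway passed. Of 16 listed, 13 were tested, none passed, 9 were below 0 and the median log2 fold change was -0.12, against 50.1% below 0 over all 8033 tested genes, of which 5.66% passed, 2.66% downward. Tap2, the partner of TAP1 in the transporter, read 84.3, 83.2 and 87.6 on the arrays labelled Bmal1-/-, against 116.1, 109.3 and 142.4 in wild type. Its genotypes did not overlap, which was also true of 26.4% of all tested genes. Its log2 fold change was -0.45 (SE 0.12), and its limma adjusted p of 0.0511 lay just over the threshold. It passed in 5 of 16 alternatives, with adjusted p from 0.0299 to 0.171. Psmb8, an immunoproteasome subunit that shapes peptides for class I, averaged 70.6 ± 12.5 on the arrays labelled Bmal1-/- and 110 ± 20.1 in wild type (-0.54, SE 0.15, adjusted p = 0.0595), with no overlap. The highest log2 fold change of the list was 0.24, that of Psme1, a proteasome activator subunit (adjusted p = 0.151).

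Among other class I heavy chain genes 20 were listed, 10 had a probe set naming that gene alone, 5 were tested and 1 fell. Of all 8033 tested genes 2.66% fell, and 1 of 5 is a small count to set beside that share. H2-Q2, a non-classical class I gene, read 141, 143.8 and 141.9 on the arrays labelled Bmal1-/-, against 267.5, 170 and 227.7 in wild type. The genotypes did not overlap, as in 26.4% of all tested genes, and the arrays labelled Bmal1-/- were nearly identical. The log2 fold change was -0.57 (SE 0.14, limma adjusted p = 0.0336). The call held in 9 of 16 alternatives, and ended when every probe set was tested (0.0875), without the intensity trend (0.085) and without any 1 array but wild-type replicate 2 (highest 0.118, without wild-type replicate 3). The Q genes are close copies of each other, so its signal may include theirs. Mr1, which presents microbial metabolites, was at -0.34 on the log2 scale (adjusted p = 0.122), and H2-M3 and Cd1d1 had -0.11 and 0.16.

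In the class II pathway 23 genes were listed and 11 tested. None passed, 10 were below 0 and the median was -0.13. Of all 8033 tested genes 5.66% passed and 50.1% were below 0. No test was made of the list as a set. Ifi30, a lysosomal thiol reductase that unfolds antigens, read 101.2, 115.5 and 100.2 on the arrays labelled Bmal1-/-, against 137.4, 135.4 and 156.6 in wild type (-0.39, SE 0.11, adjusted p = 0.0623). Ctsl, the protease cathepsin L, averaged 1598 ± 55.1 on the arrays labelled Bmal1-/- and 1853 ± 35 in wild type (-0.21, SE 0.06, adjusted p = 0.0682). The genotypes did not overlap in either, which was also true of 26.4% of all tested genes. Ciita, the master coactivator of class II genes, never exceeded 10.5 on the arrays labelled Bmal1-/- or 13.7 in wild type and was not tested, as were the co-stimulatory genes Cd80, Cd86 and Cd40. Rfx5, Rfxap and Rfxank, which form the factor that binds the X box, had log2 fold changes of -0.03, 0.04 and -0.01.

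Interferon gamma is the classical inducer of both MHC classes. In a list of 45 interferon signalling and response genes 32 were tested, 1 rose and 2 fell, or 3 of 32 against 5.66% of all genes, and the median was -0.13. Rsad2, an antiviral enzyme, read 135.7, 164.3 and 115.7 on the arrays labelled Bmal1-/-, against 80.3, 98.4 and 84.7 in wild type (0.57, SE 0.13, adjusted p = 0.0315). Of its other tested probe sets 1 rose (0.73) and 1 did not pass (0.12). Ifit3, an interferon-induced antiviral gene, averaged 29.8 ± 6.2 on the arrays labelled Bmal1-/- and 56.3 ± 9.2 in wild type (-0.66, SE 0.16, adjusted p = 0.0324), and Ifitm1, a membrane protein that blocks viral entry, 51.6 ± 4.37 on the arrays labelled Bmal1-/- and 81.8 ± 13.5 in wild type (-0.53, SE 0.14, adjusted p = 0.0484). These calls were lost in 7, 5 and 10 of the alternatives (Rsad2, Ifit3 and Ifitm1), and no array could be left out without ending at least 1 of them. Irf1, the factor that carries the interferon signal to class I promoters, had a log2 fold change of -0.06, and Ifng itself never exceeded 2.9 on the arrays labelled Bmal1-/- or 7.7 in wild type.

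**Figure D4:**
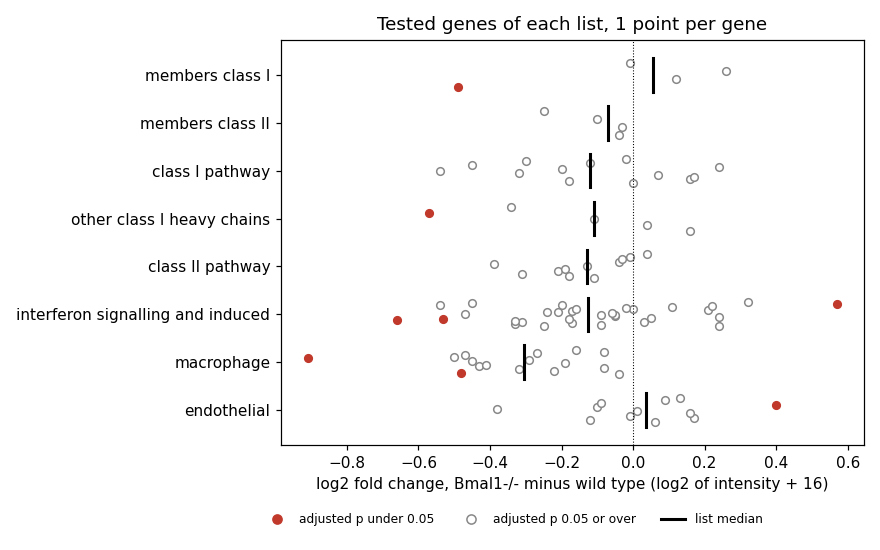
Log2 fold change (Bmal1-/- minus wild type, on log2 of intensity + 16) of each tested gene, 1 point per gene, in the 2 groups of members and in 6 other lists. Filled red points passed at an adjusted p under 0.05, open grey points did not, and black bars are list medians. The medians of the pathway and interferon lists lie between -0.11 and -0.13, that of macrophage markers at -0.31 and that of endothelial markers at 0.04.

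Markers of cells that carry MHC class II were compared as lists. In bulk glands, fewer cells of a type and less RNA per cell cannot be told apart. All 16 tested macrophage markers, of 24 listed, had negative log2 fold changes (median -0.31), and 2 fell. Of all 8033 tested genes 50.1% were below 0 and 2.66% fell. Lyz1, a lysozyme, read 79.3, 43.5 and 58.2 on the arrays labelled Bmal1-/-, against 147.7, 115.6 and 114.2 in wild type (-0.91, SE 0.17, adjusted p = 0.00934). Both tested Lyz1 probe sets end in _x_at, so their signal may include other transcripts. The remaining Lyz1 probe set read at most 5.2 and was not tested. Lyz2, another lysozyme of the list, did not pass (-0.50, SE 0.16, adjusted p = 0.0822), and its genotypes overlapped. C1qa, a chain of complement C1q, averaged 86.2 ± 5.59 on the arrays labelled Bmal1-/- and 127 ± 7.26 in wild type (-0.48, SE 0.11, adjusted p = 0.028, lost in 7 of 16 alternatives). Csf1r, the growth factor receptor that defines macrophages, had -0.43 (adjusted p = 0.0639) at its brightest probe set and -0.07 and -0.17 at the others, while Cd68 and Adgre1 had -0.08 and -0.04. The summed intensity of the list was 811 to 970 on the arrays labelled Bmal1-/-, against 1169 to 1333 in wild type. The part of this shift in the B2m result was not tested, and the class II members had log2 fold changes of -0.03 to -0.25 at their brightest probe sets.

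The lymphocyte lists were at or near background. Of 10 B cell markers on the array 8 were too dim to test, Cd79b and Ighm had log2 fold changes of -0.49 and -0.55 without passing, and the summed intensity was 79.9 to 106 on the arrays labelled Bmal1-/-, against 138 to 151 in wild type. Of 15 T and NK cell markers only Thy1, which neurons also express, was tested (-0.11), and Cd3e read at most 4.4 on the arrays labelled Bmal1-/- and 7.9 in wild type. The sum of that list was 611 to 728 on the arrays labelled Bmal1-/-, against 688 to 741 in wild type. Of 10 dendritic cell markers only Cst3, cystatin C, was tested. It rose (0.27, SE 0.07, adjusted p = 0.0484, lost in 9 of 16 alternatives) and made up most of a sum of 2901 to 3270 on the arrays labelled Bmal1-/-, against 2440 to 2738 in wild type. The defining markers Itgax and Flt3 read at most 10 on the arrays labelled Bmal1-/- and 17.9 in wild type. Cst3 read 2376 to 3222.3 over the 6 arrays, so its rise and that of the sum cannot be ascribed to dendritic cells. Red cell markers, of which 2 were tested, did not pass and their sums overlapped, at 102 to 165 on the arrays labelled Bmal1-/- and 116 to 211 in wild type.

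Markers of the other cell types of the gland are given for the same reason. Of all 8033 tested genes 2.66% fell and 3% rose, and the small counts below are to be read beside those shares. Of 12 tested endothelial markers 1 rose, Plvap, a component of fenestrated capillaries (0.40, SE 0.09, adjusted p = 0.0287, lost in 6 of 16 alternatives), and the list median was 0.04. Of the 12 there were 5 below 0 and 7 above, and Kdr was at -0.38 (limma adjusted p = 0.288). The sum of this list was 892 to 1019 on the arrays labelled Bmal1-/-, against 788 to 913 in wild type, and these ranges overlapped. Plvap alone averaged 365 on the arrays labelled Bmal1-/- and 273 in wild type. Of 9 tested folliculostellate and stem cell markers 2 fell, Lcn2 (-1.53, SE 0.16) and Cyp2f2 (-0.81, SE 0.10), and 1 rose, Aldh1a2 (0.58, SE 0.10). The other 6 did not pass, among them Sox2 (0.05), Sox9 (0.19) and Anxa1 (-0.58). Of the 9 there were 5 below 0 and 4 above, with a median of -0.12. The sum of this list was 1531 to 1662 on the arrays labelled Bmal1-/-, against 2082 to 2505 in wild type. Most of that gap lay in Cyp2f2 and Lcn2. They averaged 619 and 117 on the arrays labelled Bmal1-/-, against 1093 and 375 in wild type. Of 10 tested hormone and pituitary lineage genes 3 fell (Ghrhr, -0.66, Cga, -0.31, and Gh, -0.27) and 1 rose (Lhx3, 0.29). After quantile normalization Gh was at -0.00 and Cga at -0.04, and neither passed. That method gives equal ranks the same value on every array, so at the top of the intensity range it cannot decide whether these genes differ. With equal array medians Gh was at -0.27 (limma adjusted p = 0.0198). The call of Gh held in 9 of 16 alternatives and that of Cga in 10 of 16. The sum of the list was 56330 to 59200 on the arrays labelled Bmal1-/-, against 62243 to 70785 in wild type. The part of these shifts in the B2m result was not tested.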

How the data were processed

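Total RNA from 6 pools of 3 male pituitary glands, 3 pools per genotype, was labelled with biotin from 1 ug and hybridised to Affymetrix mouse arrays, per the labels' protocols. The authors deposited an intensity for each probe set on each array, made with MAS5 per the submitters' processing notes, with no version or detection calls stated. The mean trimmed by 2% at each end was 100.0 on all arrays. Of 22690 probe sets the platform annotation names 1 gene for 20393, more for 691 and no gene for 1606, and 64 array controls were left out.

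Intensities were taken as log2(intensity + 16) without further normalization, and the brightest 60% of probe sets, 13576, were tested with limma 3.58.1 in R 4.3.3 (lmFit, eBayes with an intensity trend, two-sided, Benjamini-Hochberg over all tested, threshold 0.05). A gene's value is its brightest tested probe set. The procedure was tested on simulated data. Named genes are all members, up to 4 passing genes per pathway list or the 2 with the smallest p, and up to 3 per cell type list, plus some list members named for contrast. The members and lists were chosen with earlier results of these data known. Alternatives were other pseudocounts (1 and 64), equal array medians, quantile normalization, no filter or the top 40%, eBayes without trend or robust, array weights, each array left out, and the mean of a gene's probe sets. Background correction could not be redone from MAS5 values, and no slide or scan information is given.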

Additional observations from a re-analysis of the deposited data

How the results depend on the processing

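The 2 member calls remained 2 in count under every alternative except eBayes without the intensity trend, which left 1, and leaving out each array in turn gave 2 to 2. Over all probe sets 752 passed, 330 with no filter on low values, 407 without the intensity trend, 312 to 939 when 1 array was left out (lowest without wild-type replicate 3, highest without wild-type replicate 2) and 644 to 817 in the others. The sign turned for some members that had not passed: H2-D1 to -0.01 as the mean of its probe sets, and Tap1 to 0.06 after quantile normalization. Leaving out 1 array gave -0.08 to 0.05 for Tap1, -0.09 to 0.05 for H2-Aa, -0.20 to 0.09 for Cd74, -0.15 to 0.01 for H2-D1 probe set 1451683_x_at and -0.33 to 0.15 for the red cell marker Hbb-b2. The causes were not tested. The top 40% of probe sets left no B cell marker and gave no value for that list. No paired analysis was possible because the genotypes share no replicate number. Dim probe sets such as those of Tap1 and Ciita limit what could be seen.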
